A study of Mus musculus with 52 samples.

Results

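The miRNAs described here come from the miR-17~92 and miR-106b~25 clusters, 2 groups of hairpins that are linked to cell proliferation, in the dentate gyrus (DG) and the cornu ammonis (CA) of the mouse hippocampus. The members were chosen by name, with earlier results of these data known. They are 10 mature miRNAs out of the 1900 that were counted, 6 from miR-17~92 (mmu-miR-17-5p, mmu-miR-17-3p, mmu-miR-18a-5p, mmu-miR-19b-3p, mmu-miR-20a-5p and mmu-miR-92a-3p) and 4 from miR-106b~25 (mmu-miR-106b-5p, mmu-miR-106b-3p, mmu-miR-93-5p and mmu-miR-25-3p). The prefix mmu, for mouse, is left out below. Small RNA was sequenced from mice of the strain C57B/6JRj, aged 20 weeks per the labels, whose CA and DG had been dissected apart. Mice had lived in a home cage (HC) or in environmental enrichment (EE, housing with more space, objects and stimulation) for 2 or 10 weeks, which gives 8 groups. The CA groups were 2wHC_CA (6 libraries), 2wEE_CA (7), 10wHC_CA (6) and 10wEE_CA (8), and the DG groups were 2wHC_DG (6), 2wEE_DG (5), 10wHC_DG (6) and 10wEE_DG (8). The labels give no genotype or agent for any group. Nor do they tell whether libraries stand for separate animals, or whether CA and DG libraries with a shared number were taken from the same animal. What the p-values measure is therefore the spread among these libraries, and part of it may be technical.

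A miRNA is cut from a hairpin in a longer transcript, either arm of the hairpin (5p or 3p) can become the mature miRNA, and its seed, the bases at positions 2 to 8, pairs with target mRNAs to lower their output. The miR-17~92 cluster is known as an oncogene in lymphoma, is switched on by MYC and E2F factors, and in the mouse brain supports the division of neural progenitors, including those of the adult DG. The miR-106b~25 cluster lies inside Mcm7, a gene of the DNA replication helicase, and promotes the proliferation of adult mouse neural stem cells in culture. The DG is a site of adult neurogenesis, whereas the CA fields hold mature pyramidal cells.

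In the mouse genome (GRCm38.p6, RefSeq), the 6 hairpins of miR-17~92 lie within 836 bases at chr14:115043671-115044506 on the plus strand, in an exon of the non-coding gene Mir17hg. The 3 hairpins of miR-106b~25 lie within 498 bases at chr5:138165321-138165818 on the minus strand, inside Mcm7. The miR-106b hairpin is intronic in 2 Mcm7 transcripts, while the miR-93 and miR-25 hairpins are intronic in 2 and exonic in 1 transcript of the GENCODE annotation. The hairpins of miR-92a-3p and miR-19b-3p each have a copy on chromosome X in the paralogous cluster that holds miR-106a and miR-363.

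All 10 members were matched to a mature sequence in RefSeq (GRCm38.p6), and they are shown because the shared seeds (in capitals) decide which members could act on the same targets. The first 4 share the seed of miR-17, miR-18a-5p differs from it within the seed, miR-19b-3p has its own, and the next 2 share the seed of miR-92. The last 2 come from the opposite arms of the miR-17 and miR-106b hairpins.
miR-17-5p: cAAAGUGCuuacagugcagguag
miR-20a-5p: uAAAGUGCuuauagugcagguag
miR-93-5p: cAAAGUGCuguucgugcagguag
miR-106b-5p: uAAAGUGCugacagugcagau
miR-18a-5p: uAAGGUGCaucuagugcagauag
miR-19b-3p: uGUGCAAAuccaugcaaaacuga
miR-92a-3p: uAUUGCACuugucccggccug
miR-25-3p: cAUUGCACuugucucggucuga
miR-17-3p: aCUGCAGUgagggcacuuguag
miR-106b-3p: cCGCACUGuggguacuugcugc

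Libraries held 480792 to 6706855 miRNA counts in CA (median 4189269) and 1117213 to 3159957 in DG (median 2093319). Library 3 of 10wEE_CA held the 480792, against 3144399 or more in the other CA libraries, and stood apart in 7 of the 10 members, so the fold changes over all conditions and within 10wEE, the mean arm ratios and the seed sums in CA are also given without it. Levels are given in CPM, the count scaled to the total miRNA count of its library, and 3 counts, taken as the floor of detection, correspond to 0.447 to 6.24 CPM depending on the library. Reads aligned to several places, 59.3 to 71.0% of reads per library, entered no miRNA count. In a dissected tissue, fewer cells of a type and less RNA per cell cannot be told apart. The sums of the 4 oligodendrocyte miRNAs did not overlap between the regions (6048 to 12513 CPM in CA, 2002 to 3869 CPM in DG). The 5 of choroid plexus and ependyma summed to medians of 10542 (CA) and 16689 CPM (DG), with overlapping ranges. The 8 of neurons summed to medians of 22653 and 26555 CPM, also with overlap. Most of that sum was miR-128-3p (medians 17140.5 and 20614 CPM). Medians of miR-137-3p, miR-153-3p, miR-9-5p and miR-9-3p were also higher in DG. Those of miR-138-5p (438 and 413 CPM), miR-7b-5p (64.9 and 43.9 CPM) and miR-124-3p were lower in DG. Of the oligodendrocyte and neuron markers, miR-219a-5p had 1 count and miR-124-3p 57 counts over all libraries, so these sums rest on their other miRNAs. Within the choroid plexus and ependyma list, miR-204-5p had the higher median in DG (15817 against 5231 CPM), while miR-34c-5p (947 against 5016 CPM) and miR-34b-5p (37.5 against 208 CPM) had lower ones. Sums for microglia and leukocytes (4 of the 6 listed were counted, medians 2699 CPM in CA and 2553 CPM in DG) overlapped as well. Most of that sum was miR-150-5p (medians 2460 and 2307 CPM). The median of miR-155-5p was also lower in DG, while those of miR-146a-5p (230 and 250 CPM) and miR-223-3p (12.5 and 13.5 CPM) were higher. Sums for erythrocytes (4 of 6 counted, 338.01 and 249.6 CPM) and vessels (22711 and 19663 CPM, with miR-126a-5p at 0 counts in every library) overlapped too. The part of these cell types in the results below was not tested.

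The members covered a wide range of abundance. miR-92a-3p ranked 34 of 1900 by its mean level over all libraries (4787 CPM ± 614, SD, n = 52), followed by miR-25-3p at rank 72 (1205 CPM ± 219.1) and miR-93-5p at rank 100 (817 CPM ± 178). miR-106b-5p, miR-106b-3p, miR-17-5p and miR-20a-5p had means between 38.9 and 112 CPM. The scarcest were miR-17-3p (9.52 CPM ± 3.23), miR-18a-5p (5.45 CPM ± 2.19) and miR-19b-3p (0.340 CPM ± 0.389). miR-19b-3p had 68 counts in all, in 31 of the 52 libraries, and did not pass the filter on low counts, which left 9 members in the tests. Both miR-19b-3p and miR-92a-3p are made by 2 hairpins with the same mature sequence, with 0 identical bases after it and 2 (miR-19b-3p) or 1 (miR-92a-3p) before it. Reads of either that aligned to both hairpins are missing from the counts, and how many is not known.

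**Figure D1:**
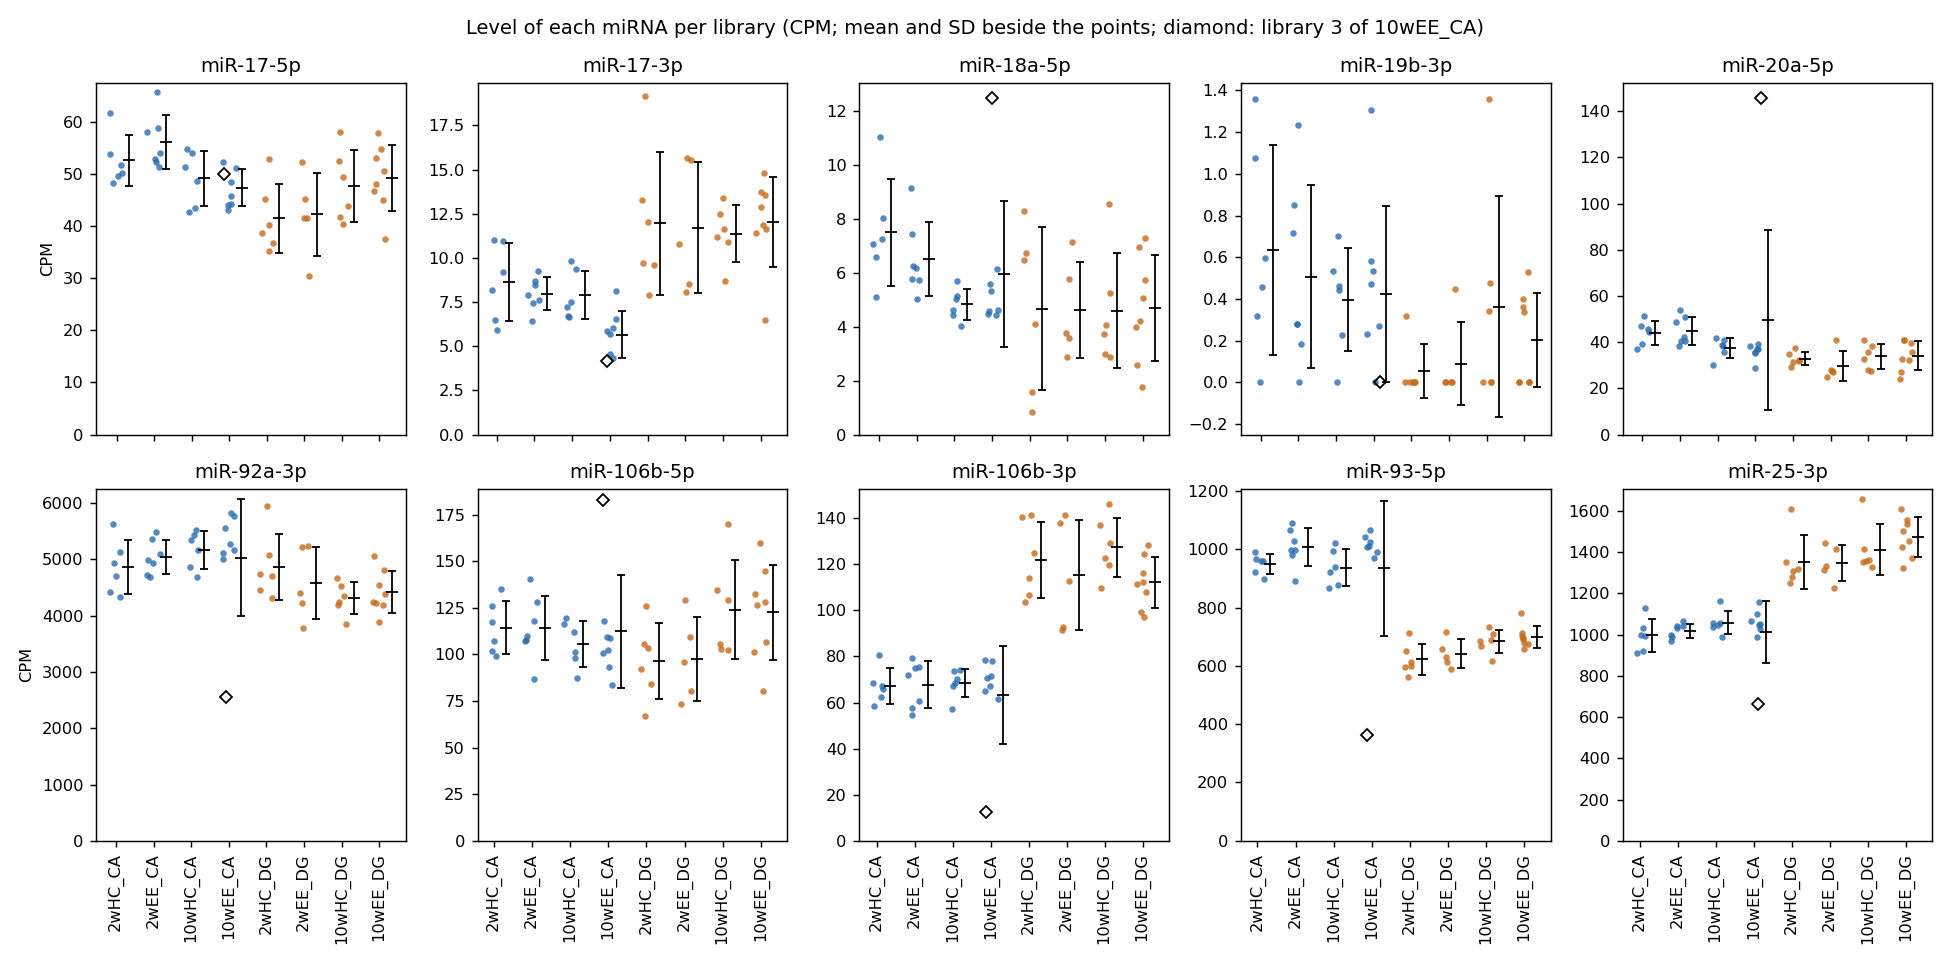
Level of each of the 10 miRNAs in CPM (y axis, linear, a separate scale per panel) in each library (points) of the 8 groups (x axis; blue, CA; orange, DG), with the mean and SD of the group beside the points and library 3 of 10wEE_CA as a diamond. miR-106b-3p and miR-25-3p lay higher in each of the 25 DG libraries than in any CA library, and miR-93-5p lay lower in DG than in every CA library but the diamond.

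The first question was whether these miRNAs differed between the neurogenic DG and CA. Over all 4 housing conditions 3 of the 9 tested members were higher in DG (miR-106b-3p, miR-17-3p and miR-25-3p) and 5 were lower (miR-93-5p, miR-20a-5p, miR-18a-5p, miR-17-5p and miR-92a-3p), with log2 fold changes from -0.56 to 0.79. Region differences were common among all 593 miRNAs tested, of which 36.1% were higher and 41.7% lower in DG (77.7% in all), so the number of members called was near the background. The median of the members was -0.17 and that of all miRNAs -0.04, and the median absolute log2 fold change was 0.39 for the members and 0.48 for all. Adjusted p-values are two-sided, from edgeR's quasi-likelihood test with Benjamini-Hochberg adjustment over all miRNAs tested, and a change was called where this was under 0.05. The members of each cluster moved in both directions, and so did the 2 members that share the miR-92 seed.

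miR-106b-3p, from the 3p arm of the first hairpin of miR-106b~25, had the highest log2 fold change among the members. Its level was 12.5, 68.5 and 80.8 CPM (lowest, median and highest) in the 27 CA libraries and 91.3, 116 and 146.1 CPM in the 25 DG libraries. Each DG library was therefore above each CA library, which was the case for 6.75% of all miRNAs tested. On the log2 scale DG was higher by 0.79 ± 0.08 (SE), or 1.73-fold (adjusted p = 6.94e-13), and 0.80 ± 0.05 without library 3 of 10wEE_CA, which held the lowest CA value.

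miR-25-3p, which shares the miR-92 seed and in cultured mouse neural stem cells promotes proliferation, was also higher in DG. It measured 663, 1038 and 1162 CPM in CA and 1225, 1363 and 1657 CPM in DG (lowest, median and highest). The regions did not overlap. Its log2 fold change was 0.42 ± 0.05 (adjusted p = 3.46e-11), and 0.44 ± 0.03 without library 3 of 10wEE_CA. Among the libraries of 2wEE_DG, the smallest group, miR-25-3p stood at 1225, 1334, 1311, 1445 and 1417 CPM and miR-106b-3p at 91.3, 113, 92.9, 141 and 137.8 CPM. All 5 exceeded the highest CA library for both miRNAs.

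miR-93-5p, which carries the miR-17 seed and lies between miR-106b and miR-25 in the same transcript, was lower in DG. Its level was 364, 989 and 1089 CPM in CA (lowest, median and highest) and 563, 675 and 781 CPM in DG. The 364 CPM came from library 3 of 10wEE_CA, and the other 26 CA libraries began at 868 CPM, above all 25 DG libraries. Without that library, 9.44% of all miRNAs tested were as clearly separated with DG lower. The log2 fold change was -0.56 ± 0.06 (adjusted p = 9.46e-12), and -0.56 ± 0.02 without library 3 of 10wEE_CA. The 5 libraries of 2wEE_DG held 632, 659, 716, 612 and 590 CPM, and the lowest library of 2wEE_CA held 892 CPM.

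miR-106b-5p, with the same seed as miR-93-5p and from the same hairpin as miR-106b-3p, was not called. It measured 83.8, 109 and 183 CPM in CA and 67.0, 105.7 and 170 CPM in DG (lowest, median and highest), with overlapping ranges. Its log2 fold change was -0.04 ± 0.07 (95% interval -0.18 to 0.09, adjusted p = 0.564), and the sign changed without library 3 of 10wEE_CA (0.01 ± 0.06, adjusted p = 0.856).

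Within miR-17~92, miR-17-3p, the opposite arm of miR-17-5p, was the member that was higher in DG. It measured 4.16, 7.45 and 11.0 CPM in CA and 6.46, 11.7 and 19.2 CPM in DG (lowest, median and highest). Of the 25 DG libraries 24 lay above the CA median and 16 above every CA library, at median counts of 30 reads in CA and 25 in DG. On the log2 scale the difference was 0.62 ± 0.09, or 1.54-fold (adjusted p = 1.4e-08), and 0.66 without library 3 of 10wEE_CA.

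miR-17-5p, the arm for which the cluster is named and a repressor of the cell cycle inhibitor Cdkn1a, was lower in DG by a small amount. It measured 42.7, 51.3 and 65.8 CPM in CA and 30.4, 45.1 and 58.0 CPM in DG (lowest, median and highest). The ranges overlapped, with 18 of 25 DG libraries below the CA median. Its log2 fold change was -0.21 ± 0.05 (adjusted p = 0.000206), and -0.17 without library 3 of 10wEE_CA.

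miR-20a-5p, which has the same seed and differs from miR-17-5p at 2 of 23 bases, was lower in DG too. It stood at 29.0, 39.3 and 145.6 CPM in CA and 24.1, 32.3 and 41.1 CPM in DG (lowest, median and highest). The 145.6 CPM was again library 3 of 10wEE_CA, and the next CA library held 53.8 CPM. The log2 fold change was -0.39 ± 0.09 (adjusted p = 8.44e-05), and -0.30 ± 0.06 without it (adjusted p = 3.4e-06).

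miR-18a-5p, whose seed differs from that of miR-17-5p, and miR-92a-3p, the end of the cluster and a miRNA also abundant in endothelium, gave calls that depended on single libraries. miR-18a-5p measured 4.01, 5.68 and 12.5 CPM in CA and 0.833, 4.11 and 8.57 CPM in DG (lowest, median and highest), at a median of 9 counts per DG library. Its log2 fold change of -0.32 ± 0.13 (adjusted p = 0.0259) became -0.27 without library 3 of 10wEE_CA, and the call was lost (adjusted p = 0.0558), as it was without any 1 of 11 DG libraries. miR-92a-3p measured 2562, 5102 and 5827 CPM in CA and 3783, 4396 and 5944 CPM in DG. The ranges overlapped for both. The log2 fold change of miR-92a-3p was -0.17 ± 0.06 (adjusted p = 0.0101), -0.16 ± 0.04 without library 3 of 10wEE_CA (adjusted p = 0.000444), and -0.10 with DESeq2, which did not call it (adjusted p = 0.101). Leaving out library 1 or 2 of 2wEE_DG also lost it (-0.13 to -0.10, adjusted p of 0.0517 to 0.125).

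miR-19b-3p was near the floor in both regions, with 0 to 6 counts in a CA library and 0 to 3 in a DG library. Its level reached 1.36 CPM in both regions, with medians of 0.456 CPM in CA and 0 in DG. Reads of it that aligned to both its hairpins are missing from these counts. No fold change is given.

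**Figure D2:**
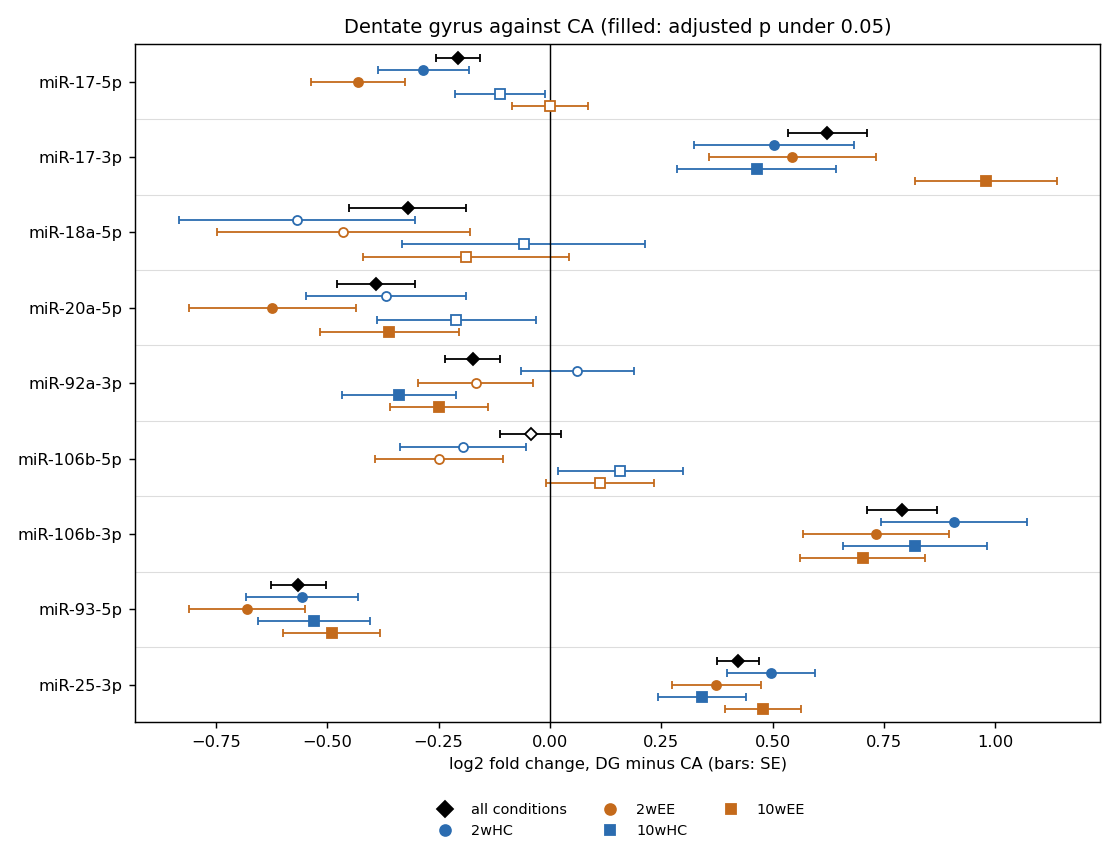
Log2 fold change of DG against CA (x axis; bars, SE) of the 9 tested members (y axis) over all conditions (black diamonds) and within 2 weeks (circles) and 10 weeks (squares) of HC (blue) or EE (orange), with filled symbols where the edgeR adjusted p was under 0.05. miR-106b-3p, miR-17-3p and miR-25-3p lay to the right and miR-93-5p to the left in each of the 4 conditions, while miR-106b-5p was open throughout.

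The region difference was then read within each housing condition. In 2wHC 3 members were higher and 2 lower in DG, 5 of 9 in all (28.3, 31.4 and 59.7% of all miRNAs tested). In 2wEE 3 were higher and 3 lower (26.6 and 31.2%, 57.8% in all). In 10wHC 3 were higher and 2 lower (21.9 and 27.8%, 49.7% in all), and in 10wEE 3 were higher and 3 lower (25.1 and 33.2%, 58.3% in all). In each condition miR-106b-3p, miR-25-3p and miR-17-3p were called higher and miR-93-5p lower in DG. Log2 fold changes ranged over the conditions from 0.70 to 0.91 for miR-106b-3p, from 0.34 to 0.50 for miR-25-3p, from 0.46 to 0.98 for miR-17-3p and from -0.68 to -0.49 for miR-93-5p. The calls of miR-17-3p were narrow in 3 conditions: they were lost without library 1 of 2wHC_DG (0.36, adjusted p = 0.086), library 3 of 2wEE_DG (0.45, adjusted p = 0.0591), or library 2 or 6 of 10wHC_CA (0.42 to 0.43, adjusted p of 0.0543 to 0.0577), and with no filter on low counts (adjusted p of 0.0939 to 0.114). With no such filter miR-25-3p was not called in 2wEE (0.29, adjusted p = 0.0581) or 10wHC (0.30, adjusted p = 0.0526). For miR-106b-3p and miR-25-3p the DG and CA libraries did not overlap in any condition, with DG higher. Of all miRNAs tested 17.5% (2wHC), 19.6% (2wEE), 19.7% (10wHC) and 12% (10wEE) were separated in that direction. For miR-93-5p they did not overlap in 2wHC, 2wEE and 10wHC, as was so with DG lower for 25.3, 23.3 and 18.4% of all miRNAs, and in 10wEE library 3 of 10wEE_CA lay below all DG libraries. Without that library the log2 fold changes in 10wEE were 0.66 for miR-106b-3p, 0.46 for miR-25-3p, 1.03 for miR-17-3p and -0.55 for miR-93-5p, all called.

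miR-17-5p was called lower in 2wHC (-0.28 ± 0.10, adjusted p = 0.0153) and 2wEE (-0.43 ± 0.11, adjusted p = 0.000448). The call in 2wHC was lost without library 3 of 2wHC_CA or library 1 of 2wEE_DG (-0.23, adjusted p of 0.0515 to 0.0586) and with DESeq2 (-0.23, adjusted p = 0.0526). At 10 weeks it was not called in HC (-0.11 ± 0.10, adjusted p = 0.361) or in EE, where the 95% interval ran from -0.17 to 0.17. miR-92a-3p was called lower in 10wHC (-0.34 ± 0.13, adjusted p = 0.0229), where the 6 DG libraries (3856 to 4668 CPM) lay below the 6 CA libraries (4683 to 5529 CPM), as was the case for 18.4% of all miRNAs tested. That call was lost without any 1 of 5 DG libraries (-0.29 to -0.26, adjusted p of 0.0514 to 0.084) and with DESeq2 (-0.26, adjusted p = 0.0569). In 10wEE its log2 fold change was -0.25 ± 0.11 (adjusted p = 0.0484), and the call was lost on leaving out any 1 of 46 of the 52 libraries, though not library 3 of 10wEE_CA (-0.29 ± 0.08, adjusted p = 0.000867). Whether these region differences themselves changed with time was not tested. miR-20a-5p was called lower in 2wEE (-0.62 ± 0.19, adjusted p = 0.00382) and in 10wEE (-0.36 ± 0.16, adjusted p = 0.0429). In 2wHC it stood at -0.37 ± 0.18 (adjusted p = 0.0736) and was called with limma voom, with no filter on low counts, with only the groups of the contrast and without library 3 of 10wEE_CA (-0.45 to -0.35, adjusted p of 0.00347 to 0.049). The call in 10wEE was lost without any 1 of 21 libraries, and without library 3 of 10wEE_CA the value was -0.08 (adjusted p = 0.506). miR-18a-5p and miR-106b-5p were called in none of the 4 conditions, with log2 fold changes of -0.57 to -0.06 and -0.25 to 0.16. In 2wHC, however, miR-18a-5p (adjusted p = 0.0604) was called with limma voom (-0.75, adjusted p = 0.0213) and without any 1 of 5 libraries (-0.82 to -0.57, adjusted p of 0.015 to 0.0489). Without library 3 of 10wEE_CA, miR-106b-5p stood at 0.25 ± 0.11 in 10wEE (adjusted p = 0.0513).

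The order of group means showed the same split. For miR-106b-3p the 4 DG groups ranked first, from 127 CPM ± 12.9 (SD, n = 6) in 10wHC_DG to 112 CPM ± 11.0 (n = 8) in 10wEE_DG, followed by the CA groups from 68.5 CPM ± 6.23 in 10wHC_CA down to 63.2 CPM ± 21.3 in 10wEE_CA. Adjacent groups in that order differed by more than the larger SD of the pair at 1 place, between the last DG and the first CA group. The same was true of miR-25-3p, from 1472 CPM ± 96.3 in 10wEE_DG to 997 CPM ± 79.8 in 2wHC_CA, and in reverse of miR-93-5p, from 1007 CPM ± 64.4 in 2wEE_CA to 623 CPM ± 52.8 in 2wHC_DG. Without library 3, 10wEE_CA had the highest CA mean of all 3 miRNAs (70.4, 1064 and 1016 CPM), 2wHC_CA the lowest of miR-106b-3p (67.2 CPM), and the place where neighbours were apart was again between the regions. For miR-17-3p neighbours were apart at 2 places, between the last DG and the first CA group and between 10wHC_CA and 10wEE_CA, and for miR-20a-5p at 1, between 2wHC_CA and 10wHC_CA. For miR-17-5p, miR-18a-5p, miR-92a-3p and miR-106b-5p no neighbouring groups were apart, with the highest group mean 1.35, 1.64, 1.20 and 1.29 times the lowest, though for miR-18a-5p 2wEE_CA and 10wEE_CA were apart without library 3 of 10wEE_CA.

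The arms of single hairpins were then set against each other, since the 5p and 3p arms of a hairpin are cut from the same molecule. This comparison is a description with no test of the ratio, on the log2 scale of counts with 0.5 added. For miR-106b the log2 ratio of 5p to 3p was 0.78 ± 0.64 (SD, n = 27) in CA and -0.11 ± 0.44 (n = 25) in DG. The CA libraries ran from 0.27 to 3.77, the highest being library 3 of 10wEE_CA with the rest at 1.21 or less, and the DG libraries from -1.06 to 0.47. The 5p arm was thus the more counted one in every CA library, while the median DG library held both arms at nearly the same count, and 20 of 25 DG libraries lay below all CA libraries. For miR-17 the log2 ratio was 2.79 ± 0.32 in CA and 1.95 ± 0.38 in DG, or about 6.94 reads of 5p for each read of 3p in CA and 3.86 in DG, with 19 of 25 DG libraries below all CA libraries. Without library 3 of 10wEE_CA the CA means were 0.67 ± 0.23 (n = 26) for miR-106b and 2.78 ± 0.31 for miR-17.

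The arms of the miR-93, miR-18a and miR-25 hairpins were added after these values had been seen. The log2 ratio of miR-93-5p to miR-93-3p was 5.90 ± 0.32 in CA and 4.89 ± 0.28 in DG. Each of the 25 DG libraries (3.99 to 5.36) lay below each CA library (5.43 to 6.87). How many other hairpins have ratios that separate the regions in this way was not counted, for miR-93 or for miR-106b and miR-17 above. For miR-18a the ratio was 1.33 ± 0.62 in CA and 0.45 ± 0.91 in DG, with overlap. For miR-25, where the 3p arm dominates, the log2 ratio of 5p to 3p was -8.15 ± 0.45 in CA and -7.76 ± 0.50 in DG. For miR-20a, added last and with a median of 5 (CA) and 2 (DG) counts of its 3p arm, the log2 ratio was 4.98 ± 0.63 in CA and 4.60 ± 0.90 in DG, with overlap. The CA means without library 3 of 10wEE_CA were 5.86 for miR-93, 1.30 for miR-18a, -8.11 for miR-25 and 4.96 for miR-20a. Unequal arms were not particular to these hairpins. Of 176 hairpins with both arms tested, 125 had both arms called between DG and CA, and 14 (7.95%) had them called in opposite directions, among them miR-17, miR-18a and miR-93. For miR-18a this rests on the 5p call, which was lost with DESeq2 and without library 3 of 10wEE_CA. The median absolute difference between the log2 fold changes of the arms was 0.29 over the 176, and the differences of miR-93 (-0.95), miR-106b (-0.83), miR-17 (-0.83), miR-18a (-0.73) and miR-25 (0.31) ranked 8, 16, 17, 21 and 81.

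**Figure D3:**
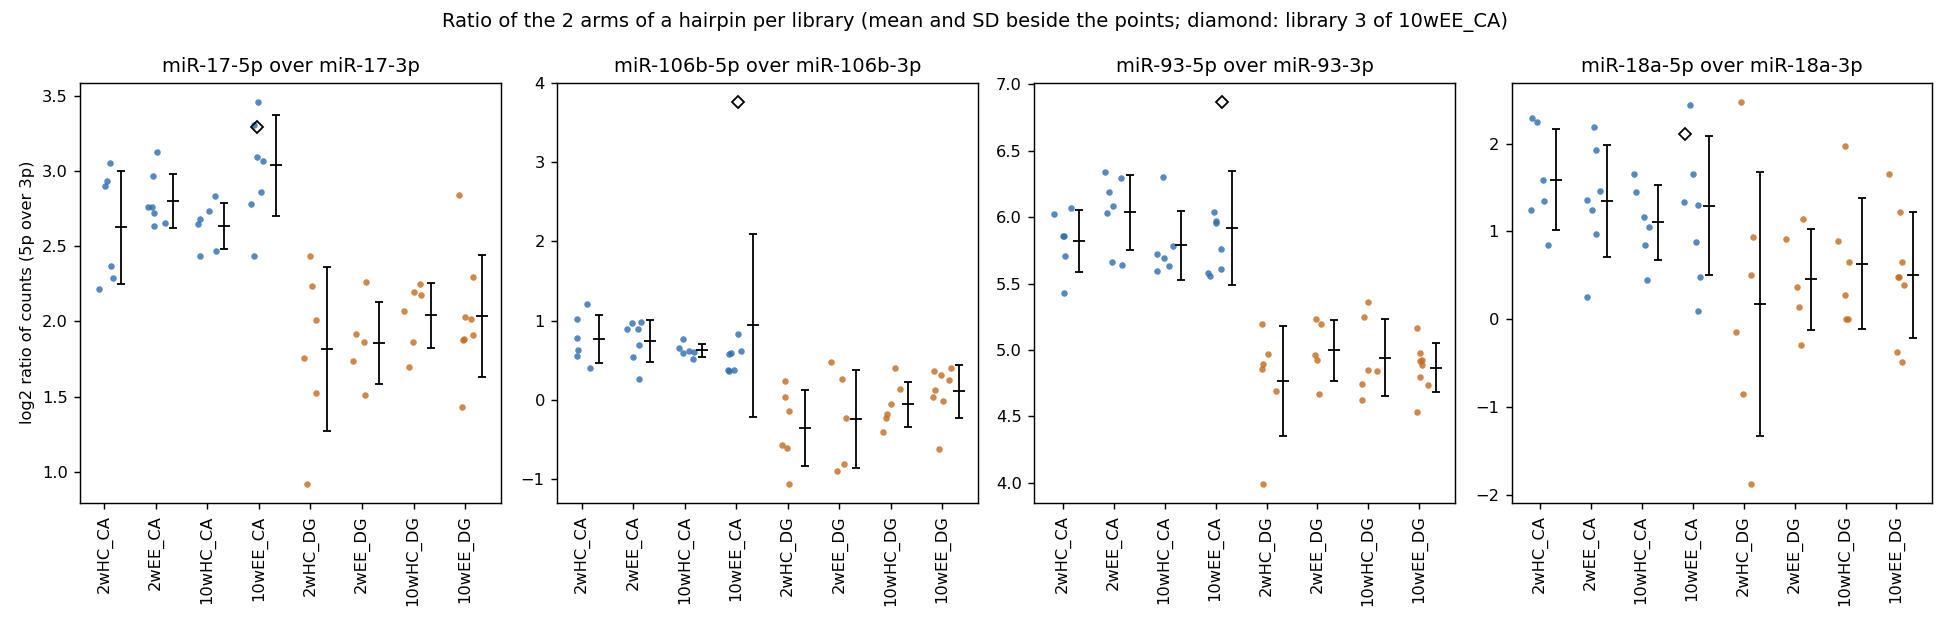
Log2 ratio of the 5p to the 3p count (y axis, a separate scale per panel) of the miR-17, miR-106b, miR-93 and miR-18a hairpins in each library (points) of the 8 groups (x axis; blue, CA; orange, DG), with the group mean and SD beside the points and library 3 of 10wEE_CA as a diamond. In the miR-93 panel the DG libraries (3.99 to 5.36) all lay below the CA libraries (5.43 to 6.87), and in the miR-106b panel the DG libraries lay around 0.

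Neighbours within a cluster shifted against each other, which restates the opposite region differences of single members given above. The log2 ratio of miR-93-5p to miR-25-3p, also added after values were seen, was -0.11 ± 0.18 in CA and -1.08 ± 0.15 in DG, with each DG library below each CA library. How many other pairs of miRNAs separate the regions in this way was not counted. In CA the 2 miRNAs were counted about equally, and in DG there were 0.474 reads of miR-93-5p for each of miR-25-3p. Across the clusters, the log2 ratio of miR-106b-5p to miR-17-5p, which share a seed, was 1.11 ± 0.21 in CA and 1.27 ± 0.24 in DG, with overlapping ranges. Without library 3 of 10wEE_CA the CA means of these ratios were -0.08 and 1.08.

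Of 20 further miRNAs (the remaining arms of both clusters, the miRNAs of the cluster of miR-106a and miR-363, and miR-92b-3p and miR-32-5p, which share the miR-92 seed) 8 passed the filter on low counts. Over all conditions 5 of these were called higher and 2 lower in DG. Of all miRNAs tested 36.1% were higher and 41.7% lower (77.7% in all), so the number called was near the background. The higher ones were miR-363-3p (log2 fold change 0.93 ± 0.19), miR-25-5p (0.73 ± 0.14), miR-92b-3p (0.44 ± 0.10), miR-18a-3p (0.41 ± 0.18) and miR-93-3p (0.39 ± 0.09). The lower ones were miR-32-5p (-0.82 ± 0.09) and miR-19a-3p (-0.22 ± 0.09). miR-92a-1-5p was not called (0.04 ± 0.11, adjusted p = 0.716). The called values had adjusted p of 0.0309 or less. By condition, 4 of the 8 were called higher in 2wHC, 1 in 2wEE, 2 in 10wHC and 3 in 10wEE (28.3, 26.6, 21.9 and 25.1% of all miRNAs tested). Called lower were 2, 2, 1 and 1 (31.4, 31.2, 27.8 and 33.2%). The remaining 12 were too scarce to test, among them miR-106a-5p with 34 counts in all. That miRNA differs from miR-17-5p at 1 of 23 bases, and miR-20b-5p, with 80 counts, at 2 of 23, beside 8074 counts of miR-17-5p itself. How reads of such near copies were divided among them is not known.

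**Figure D4:**
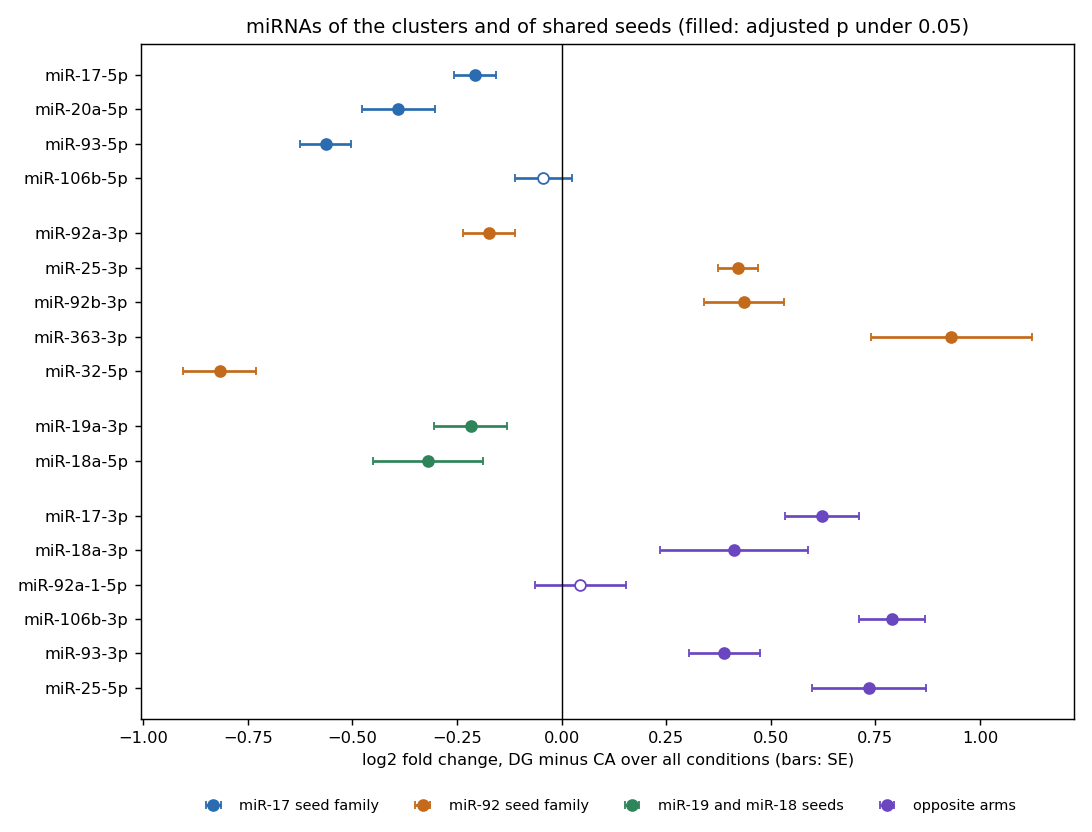
Log2 fold change of DG against CA over all conditions (x axis; bars, SE) for the tested miRNAs of both clusters and of their shared seeds (y axis), coloured by seed group, with filled symbols where the edgeR adjusted p was under 0.05. The miR-17 seed group lay at or below 0, from -0.56 to -0.04 (miR-106b-5p at 0.01 without library 3 of 10wEE_CA), while the miR-92 seed group ran from -0.82 to 0.93.

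Grouped by seed, the members fell into different patterns. The 6 miRNAs with the miR-17 seed summed to 1165 CPM ± 108 (SD, n = 27) in CA and 857 CPM ± 85.2 (n = 25) in DG, and miR-93-5p alone made up 81.7% of that sum in CA and 77.9% in DG. The share of miR-106b-5p was 9.79% in CA and 12.9% in DG. The direction of the sum was thus that of its most abundant member. The 5 miRNAs with the miR-92 seed summed to 30058 CPM ± 5439 in CA and 39142 CPM ± 7543 in DG. By condition, the DG and CA means of this sum were 48552 and 30374 CPM in 2wHC, 44677 and 29758 CPM in 2wEE, 32968 and 31247 CPM in 10wHC, and 33255 and 29192 CPM in 10wEE (32297 CPM in CA without library 3). The ranges of the regions did not overlap at 2 weeks and overlapped at 10 weeks. Of all single miRNAs tested 17.5% (2wHC) and 19.6% (2wEE) were separated with DG higher. Whether the region difference of the sum changed with the weeks of housing was not tested. Here miR-92b-3p, from a hairpin outside the clusters, held 79.0% in CA and 84.4% in DG, while miR-92a-3p held 17.3% in CA and 11.9% in DG. miR-25-3p contributed 3.58% and 3.73%. Reads of miR-92a-3p that aligned to both its hairpins are missing from its count, while miR-92b-3p and miR-25-3p have 1 hairpin each. How far this changes the shares and the sum is not known. The larger difference of the sum at 2 weeks was that of miR-92b-3p, which is not a member. Its DG and CA means were 42313 and 24488 CPM in 2wHC and 27233 and 24992 CPM in 10wHC. Those of miR-92a-3p were 4868 and 4859 CPM in 2wHC and 4305 and 5169 CPM in 10wHC, and those of miR-25-3p 1352 and 997 CPM, and 1412 and 1059 CPM. miR-92b-3p differs from miR-92a-3p at 2 of 21 bases. Without library 3 of 10wEE_CA the CA sums had means of 1181 CPM for the miR-17 seed and 30927 CPM for the miR-92 seed.

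By the closeness of the centred mean log2 CPM over the 8 groups, the profile of the 5 tested miR-17~92 members was nearest to those of miR-125b-2-3p, miR-99a-5p and miR-503-3p (root mean square differences of 0.055, 0.058 and 0.060, against a median of 0.30 over all miRNAs). The profile of the 4 miR-106b~25 members was nearest to miR-744-3p, miR-425-5p and miR-30a-5p (0.042, 0.044 and 0.065, against 0.31). Both mean profiles were shallow, with ranges of 0.26 and 0.28 on the log2 scale, and each averages members that moved in opposite directions.

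The second question was whether enrichment changed these miRNAs. None of the 9 tested members was called in DG after 2 weeks (0.571% of all miRNAs tested were called) or 10 weeks (0.381%), or in CA after 2 weeks (0%) or 10 weeks (0%), by edgeR, DESeq2 or limma voom. At an unadjusted p under 0.05, edgeR gave 29, 29, 35 and 30 of all miRNAs in these comparisons, and 0, 0, 0 and 1 members. In DG the log2 fold changes of enriched against home cage ran from -0.16 to 0.04 after 2 weeks and from -0.15 to 0.11 after 10 weeks. For miR-93-5p the 95% interval was -0.09 to 0.16 after 2 weeks and -0.05 to 0.18 after 10 weeks, and for miR-25-3p it was -0.21 to 0.17 and -0.08 to 0.26. For the scarce miR-18a-5p the interval after 2 weeks ran from -0.82 to 0.76, so that a change of that size was not detectable at this depth.

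The member with an unadjusted p under 0.05 was miR-17-3p in CA after 10 weeks. It measured 6.68, 7.35 and 9.81 CPM in the 6 libraries of 10wHC_CA and 4.16, 5.76 and 8.11 CPM in the 8 of 10wEE_CA (lowest, median and highest). The groups overlapped. In the edgeR fit enriched libraries were at -0.42 ± 0.16 relative to home cage on the log2 scale (adjusted p = 0.82), and at -0.40 ± 0.16 without library 3 of 10wEE_CA (adjusted p = 0.428). In DG the same miRNA had 0.11 ± 0.18 after 10 weeks, and the difference between the regions' enrichment effects was 0.51 ± 0.24 (adjusted p = 0.985). No member was called for a difference between the regions' enrichment effects at 2 or 10 weeks (0% of all miRNAs in both, and 17 and 25 of all at an unadjusted p under 0.05). In none of the 4 comparisons did enriched and home cage libraries of any member separate without overlap, and of all miRNAs 0.762 and 0% did so in DG (2 and 10 weeks) and 0.172% in CA at either time.

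**Figure D5:**
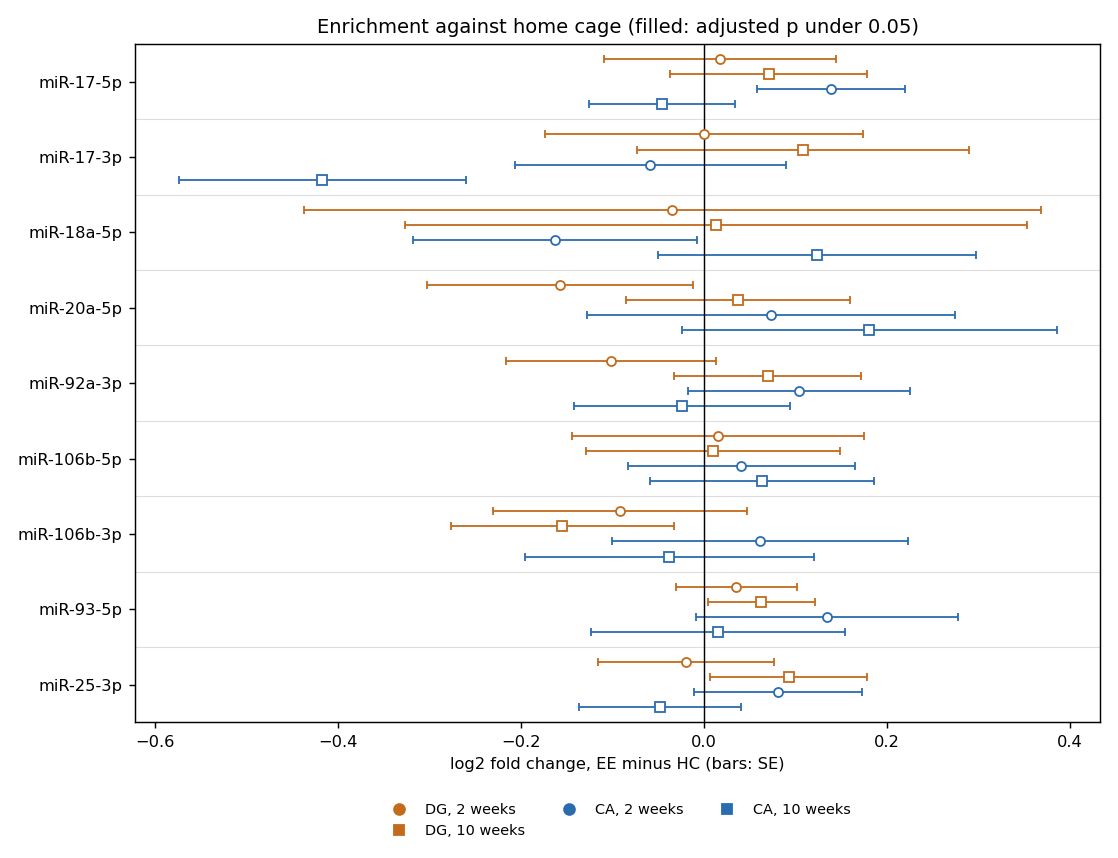
Log2 fold change of enriched against home cage mice (x axis; bars, SE) of the 9 tested members (y axis) in DG (orange) and CA (blue) after 2 weeks (circles) and 10 weeks (squares). No symbol is filled, since no edgeR adjusted p was under 0.05, and the value farthest from 0 was -0.42 for miR-17-3p in CA after 10 weeks.

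Home cage groups of the 2 times were compared last. The labels give an age of 20 weeks for both, so by the labels they differ in the weeks alone. Weeks of housing and any other difference between the 2 sets of libraries cannot be told apart. In DG 0 of 9 members were called between 10 and 2 weeks (edgeR), while 16% of all miRNAs tested were. Of these 84 calls 47.6% were higher at 10 weeks, or 66.2% of the calls when counts were scaled by library size alone. The nearest members were miR-92a-3p (4308, 4717 and 5944 CPM at 2 weeks, 3856, 4289 and 4668 CPM at 10 weeks, as lowest, median and highest of 6; log2 fold change -0.26 ± 0.11, adjusted p = 0.11) and miR-106b-5p (0.30 ± 0.15, adjusted p = 0.189). Of the members 1 was at an unadjusted p under 0.05 (miR-92a-3p), and DESeq2 and limma voom also called 0. In CA 0 members and 0% of all miRNAs were called, with 1 member and 35 miRNAs at an unadjusted p under 0.05. That member was miR-18a-5p, with 5.09, 7.16 and 11.0 CPM at 2 weeks and 4.01, 4.83 and 5.68 CPM at 10 weeks. The log2 fold change was -0.61 ± 0.17 (adjusted p = 0.252). Without library 3 of 10wEE_CA, which belongs to neither group but shares their fit, the log2 fold change was -0.62 ± 0.16 with an adjusted p of 0.0313, and 12 miRNAs were called in all. A fit on the groups of the contrast alone, which lacks that library too, did not call it (-0.61 ± 0.17, adjusted p = 0.101).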

How the data were processed

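Per the labels' protocols, CA and DG were dissected under a microscope and libraries were made from total RNA with TruSeq chemistry. The authors deposited raw counts of reads for each mature miRNA, made with CASAVA 1.8.2, cutadapt, STAR and HTSeq on mm10, per the submitters' processing notes; the other versions and the annotation were not given in the sources used here. Dropped were the 5 closing rows of reads given to no miRNA, and 22.5 to 36.8% of reads were assigned to a miRNA. Groups and library numbers came from sample titles. Counts were tested with edgeR 4.0.16 in R 4.3.3 (TMM, filterByExpr by group, quasi-likelihood F test, Benjamini-Hochberg, threshold 0.05), with 1 mean per group and no covariate. Region contrasts and differences of effects were fitted on all 52 libraries, contrasts within a region on its 25 DG or 27 CA libraries. The SE is the log2 fold change divided by the root of F. Printed CPM use library size alone. Floors and intervals cover counting error or the spread between libraries only. Alternatives were library size scaling, DESeq2 1.42.0, limma voom 3.58.1, other filters, a replicate block, fewer groups, and leaving out each library. The fitting code was also run on simulated counts with known changes, drawn with the same spread for all miRNAs and no library that stood apart. That outcome is not given here. All 10 members are named; of 20 related miRNAs those tested and called, and the 3 nearest profiles per cluster. The members and lists were chosen with earlier results of these data known. No 2 libraries of a group were identical: over 147 pairs the chi-square per degree of freedom was at least 13.0.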

Additional observations from a re-analysis of the deposited data

Results flagged for a closer look

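In 16 of 80 combinations of a miRNA and a group, the highest or lowest library lay far from the rest of its group by Dixon's criterion, which chance meets in about 1 of 20 groups. Of these, 7 lay in library 3 of 10wEE_CA. It was high for miR-20a-5p (145.6 CPM against 29.0 to 39.3 in the other libraries of the group), miR-106b-5p (183 CPM against 83.8 to 118) and miR-18a-5p (12.5 CPM against 4.44 to 6.15), the last from 6 counts. It was low for miR-92a-3p (2562 CPM against 4997 to 5827), miR-25-3p (663 CPM against 988 to 1161), miR-93-5p (364 CPM against 971 to 1066) and miR-106b-3p (12.5 CPM against 61.7 to 78.7), the last again from 6 counts.

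Among DG libraries, library 6 of 2wHC_DG (1608 CPM against 1249 to 1350) and library 6 of 10wHC_DG (1657 CPM against 1329 to 1416) were high for miR-25-3p. Library 6 of 10wEE_DG was high for miR-93-5p (781 CPM against 658 to 713), and library 3 of 2wEE_DG for miR-20a-5p (41.0 CPM against 24.9 to 28.0). Library 8 of 10wEE_DG was low for miR-17-3p (6.46 CPM against 11.4 to 14.8), from 11 counts.

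For miR-19b-3p the values apart were 1.31 CPM in library 5 of 10wEE_CA (5 counts), 1.36 CPM in library 4 of 10wHC_DG (3 counts), 0.316 CPM in library 5 of 2wHC_DG and 0.448 CPM in library 1 of 2wEE_DG (1 count each), at levels where single reads set the value.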

How the results depend on the processing

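Of 875 values of tested members under the alternatives, 845 kept their side of the threshold, 24 lost and 6 gained a call, and none reversed a call. In 47 of the 845 the sign changed where neither fit made a call. Leaving out 1 library at a time gave 4680 values, of which 92 lost and 7 gained a call. Counts of called members moved by over 1.5 times in 3 cases: 3 in 10wHC with no filter on low counts (5 in the fit reported), 3 in 10wEE with a minimum mean of 10 CPM (6 reported), which also drops miR-17-3p and miR-18a-5p from the test, and 1 for 10 against 2 weeks of home cage in CA without library 3 of 10wEE_CA (0 reported). Over all conditions the called members numbered 6 to 9 under the alternatives and 6 to 8 on leaving out 1 library (8 reported). By condition, leaving out 1 library gave 4 to 6 (2wHC), 5 to 6 (2wEE), 4 to 5 (10wHC) and 4 to 6 (10wEE). It gave 0 to 1 for 10 against 2 weeks of home cage in CA. For enrichment the count was 0 throughout. The call of miR-18a-5p over all conditions was lost with library size scaling, with DESeq2 and without library 3 of 10wEE_CA, libraries 2 to 5 of 2wEE_DG, 2, 4 or 6 of 10wHC_DG or 3, 5, 6 or 8 of 10wEE_DG (adjusted p of 0.0505 to 0.0944). The call of miR-92a-3p in 10wHC was lost without library 4 of 2wHC_DG, 2 of 2wEE_DG, or 2, 4 or 6 of 10wHC_DG, and with DESeq2. The call of miR-20a-5p in 10wEE was lost without any 1 of 21 libraries and in 7 alternatives.

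Library numbers shared between regions were not taken as pairs: 8 of 25 pairs of a CA and a DG library correlated above 0.1, 5 of them among the 6 pairs of 2wHC (0.13 to 0.33, with the remaining pair at -0.05), and 8 of 25 CA libraries correlated best with the DG library of their own number. Whether such libraries come from 1 animal is not known. Of pairs of a home cage and an enriched library 9 of 23 correlated above 0.1. With the replicate number as a block, 8 members were called over all conditions and 5, 6, 5 and 5 by condition, miR-92a-3p in 10wEE being the call lost, and 0 in the other comparisons. For all miRNAs, counts moved by over 1.5 times for enrichment in DG after 2 weeks (3 to 1, contrast groups only) and 10 weeks (2, with 0 under the block, the 10 CPM minimum and contrast groups only, 1 with library size scaling, and 0 to 1 on leaving out 1 library). They also moved for enrichment in CA after 2 weeks (0 to 9 without library 3 of 10wEE_CA, 6 with contrast groups only, 1 with DESeq2) and 10 weeks (0 to 3 without that library). The count for 10wHC_DG against 2wHC_DG went from 84 to 55 with contrast groups only and 51 with no filter. It was 48 to 53 without library 1 or 4 of 2wHC_DG or 5 of 10wHC_DG. The count for the same home cage groups in CA went from 0 to 12 without library 3 of 10wEE_CA. It was 8 with contrast groups only, 3 with DESeq2 and 2 with no filter. The share of enrichment calls that were higher went from 100 to 75% (DG, 2 weeks) and from 50 to 0% (DG, 10 weeks) with library size scaling. With 5 instead of 0.5 added to each count, the difference of the mean log2 arm ratio between DG and CA, averaged over groups, was -0.84 in both settings for miR-17, and -0.87 instead of -0.91 for miR-106b. DG libraries were shallower than CA libraries, which limits miR-18a-5p most among the tested members. miR-19b-3p had few counts in both regions, and reads of it that aligned to both its hairpins are missing.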
